A study of Mus musculus with 2 samples.

Results

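Deep-layer cortical neuron factors are the genes by which neurons of cortical layers 5 and 6 are commonly recognised, and 10 of them, given by name, were taken from 43346 Ensembl genes: Tbr1, Bcl11b, Bcl11a, Fezf2, Foxp2, Tle4, Zfpm2, Nfe2l3, Crym and Etv1. Gene identifiers without their version were matched to GENCODE names, and all 10 were found in the gene tables and the transcript tables. The study measured total RNA by RNA-seq in mouse forebrain at embryonic day 14.5, in 1 group of 2 samples labelled biological replicates 1 and 2, with no treatment, no engineered allele and no second group. Both samples were tissue of strain B6NCrl (a C57BL/6 substrain), each described as the forebrain of a single pup. They were collected on different days, and they share a donor identifier and a sex label that calls them pooled. Below they are called 2 embryos after the description of a single pup, although the labels do not settle it. The spread between the 2 samples is the only error between samples, and no test between groups can be made. Errors below are standard deviations of the 2 libraries.

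The cerebral cortex builds its layers from the inside outwards, so the neurons of layers 6 and 5 are born before those of the upper layers. Neurons of layer 6 mainly project to the thalamus and many of layer 5 project below the cerebrum, to the midbrain, hindbrain and spinal cord. Transcription factors that repress one another set these fates apart: Fezf2 acts upstream of Bcl11b in subcerebral neurons of layer 5, and Tbr1 opposes both in layer 6. Several of these genes are also used outside the cortex, Bcl11b, Bcl11a and Foxp2 in the striatum among them. In RNA from whole forebrain a level cannot be assigned to a layer or region, and fewer cells of a type and less RNA per cell cannot be told apart.

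All 10 genes reached 1 TPM (a transcript level corrected for length and library size) in both forebrains, as did 59.6% of the 21461 nuclear protein-coding genes. Of the 10, 8 reached 10 TPM in both, against 38.4% of protein-coding genes, and Nfe2l3 and Zfpm2 were those that did not. The median of the 10 was 24.88 TPM in the first replicate and 30.33 TPM in the second, or 27.13 ± 3.85 TPM (SD, n = 2), and the 12795 protein-coding genes detected in both had a median of 19.37 TPM. Means ran from 8.02 TPM for Zfpm2 to 135 TPM for Bcl11a, a 16.9-fold range. The counts behind these levels lay between 466 and 8904 reads per gene and library. The coefficient of variation between the forebrains was lowest for Tle4 at 2.45% and highest for Foxp2 at 23.6%, with a median of 13.1%. The deposited TPM intervals of the 2 libraries overlapped for Tbr1, Crym and Tle4 and lay apart for the others.

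**Figure D1:**
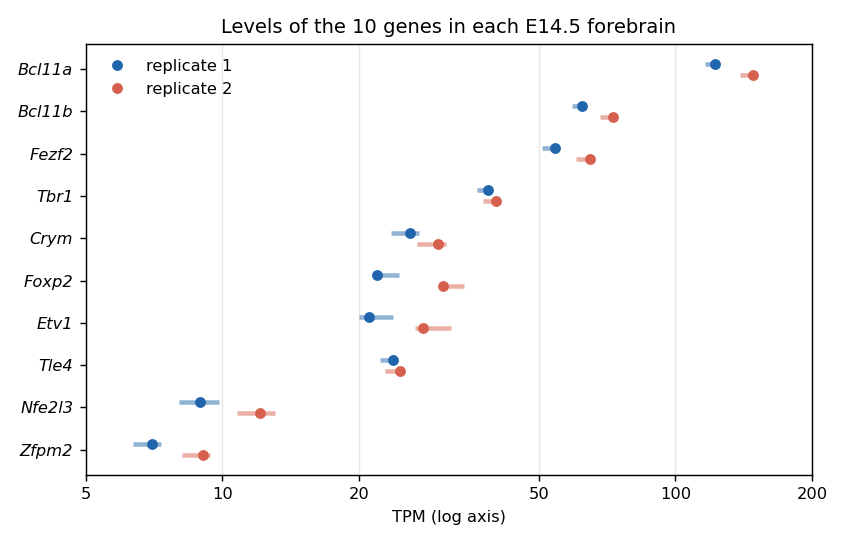
TPM of the 10 genes (points, log axis) in the forebrain of replicate 1 and replicate 2, with the deposited interval of each TPM as a bar, ordered by mean TPM. Replicate 2 lies to the right of replicate 1 for every gene, by 1.38-fold for Foxp2 and by 1.03-fold for Tle4 on the TPM + 1 scale, and Bcl11a stands above all others in both.

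Fezf2 encodes a zinc finger repressor needed for subcerebral projection neurons (ENSMUSG00000021743.5, chr14:12342094-12348189, minus strand, GRCm38). It was measured at 54.14 TPM in replicate 1 and 64.84 TPM in replicate 2, from 2732 and 2519 reads, which is 59.5 ± 7.57 TPM (SD, n = 2). That placed it at the 87.0th percentile of protein-coding genes, below Bcl11a and Bcl11b alone among the 10. A single transcript, Fezf2-201 with 455 codons, was quantified for it, so its transcript share was 100% by construction.

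Bcl11b encodes CTIP2, the zinc finger factor most used to mark layer 5 subcerebral neurons (ENSMUSG00000048251.11, chr12:107910403-108003602, minus strand). Its level reached 62.3 TPM in replicate 1 and 72.65 TPM in replicate 2, from 8904 and 8029 reads, or 67.5 ± 7.32 TPM (SD, n = 2). The gene held more reads than any other of the 10 in both forebrains, although Bcl11a had the higher level per length. Bcl11b-201, which codes for 884 codons, made up 66.4% and 66.7% of its TPM. Bcl11b-203, of 812 codons, made up 30.41% and 33.3%, and it was 13.6% and 14.8% of the gene's reads since it is the shorter of the pair. The longer transcript exceeded the shorter by 1.13 and 1.00 on the log2 scale, so it was about as far ahead in one embryo as in the other.

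Within the coding part, these Bcl11b transcripts differ by 1 exon of 216 bases, that is 72 codons, at chr12:107965672-107965887 on the minus strand of GRCm38. Their untranslated parts differ too, with 459 bases before and 5000 after the coding part in Bcl11b-201, and 271 and 181 in Bcl11b-203. The estimated split therefore does not rest on the exon alone. The exon is shown because it is the coding difference between the transcript that held the larger share and the one that held the smaller. Capitals mark the exon, with 15 coding bases of the neighbouring exons on either side, 5′ to 3′.
Bcl11b-201: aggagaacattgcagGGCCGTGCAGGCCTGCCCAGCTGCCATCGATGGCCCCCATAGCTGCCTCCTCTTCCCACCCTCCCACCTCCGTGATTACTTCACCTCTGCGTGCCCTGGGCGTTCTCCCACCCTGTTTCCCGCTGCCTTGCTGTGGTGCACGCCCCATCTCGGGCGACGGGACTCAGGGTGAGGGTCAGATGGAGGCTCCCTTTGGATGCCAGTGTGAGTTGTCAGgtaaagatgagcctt
Without the exon the shared sequence runs straight on into the next exon. The line that follows has 30 shared bases in lower case and the 30 bases after the junction in capitals.
Bcl11b-203: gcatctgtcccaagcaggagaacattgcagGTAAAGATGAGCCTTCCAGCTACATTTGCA

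Bcl11a encodes CTIP1, the close relative of CTIP2 that acts in projection neurons of deep and upper layers (ENSMUSG00000000861.11, chr11:24078056-24174123, plus strand). It had 122.42 TPM in replicate 1 and 147.97 TPM in replicate 2, from 7588.48 and 7577.23 estimated reads, or 135 ± 18.1 TPM (SD, n = 2). It was the highest of the 10 in each forebrain, at the 94.5th percentile of protein-coding genes. Its TPM in replicate 2 lay just above its own deposited interval, which it alone of the 10 did.

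The high Bcl11a level rested on a short transcript. Bcl11a-204, with 191 codons in 1505 bases, held 66.53% of the gene's TPM in replicate 1 and 59.37% in replicate 2, but 34.5% and 28.7% of its reads. Bcl11a-202, with 835 codons in 5989 bases, held 23.74% and 24.75% of the TPM. Bcl11a-201, with 773 codons, is named besides because it is the other long form, and it held 5.87% and 10.07%. Together the long forms came to 36.26 TPM in replicate 1 and 51.52 TPM in replicate 2, and Bcl11a-204 exceeded their sum by 1.17 and 0.77 on the log2 scale.

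The 3 transcripts are shown where they part after shared coding bases, since the split decides how Bcl11a compares with Bcl11b. Bcl11a-204 also starts 2497 bases downstream of the start of Bcl11a-202, a difference at the 5′ end that the lines do not show. In each line 30 shared coding bases are in lower case and the 30 coding bases that follow are in capitals (plus strand, GRCm38, 5′ to 3′). In Bcl11a-202 the exon runs on from chr11:24163259-24163288 into chr11:24163289-24163318, and in Bcl11a-204 the same 30 bases are joined to an exon downstream that begins with chr11:24172699-24172728.
Bcl11a-202: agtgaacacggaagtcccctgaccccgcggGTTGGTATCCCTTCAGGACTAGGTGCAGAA
Bcl11a-204: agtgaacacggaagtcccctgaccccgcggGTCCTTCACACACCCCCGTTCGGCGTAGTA
Bcl11a-201 leaves the exon of Bcl11a-202 further on, after chr11:24164859-24164888, and joins the same downstream exon as Bcl11a-204.
Bcl11a-201: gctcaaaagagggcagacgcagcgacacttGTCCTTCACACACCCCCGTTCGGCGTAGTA
Reads of the shared exons cannot be assigned to 1 of these transcripts by sequence, so the shares are model estimates.

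Etv1 encodes an ETS-domain factor, also called ER81, found in layer 5 (ENSMUSG00000004151.12, chr12:38779380-38870484, plus strand). It stood at 21.03 TPM in replicate 1 and 27.71 TPM in replicate 2, from 1419.7 and 1401.25 estimated reads, or 24.4 ± 4.72 TPM (SD, n = 2). Its RNA was the most divided of the 10 genes, with 4 transcripts at 10% or more. Etv1-203, of 454 codons, held 24.82% and 24.59%, and Etv1-201, of 477 codons, held 23.31% and 21.91%. Their deposited TPM intervals overlapped in both libraries, and by the posterior mean estimate Etv1-201 led in replicate 1. The coding transcript Etv1-202 held 19.27% and 11.3%, and Etv1-212, which keeps an intron and has no coding part, held 12.97% and 19.93%. Coding transcripts therefore made up 83.5 ± 4.88% of Etv1 TPM, the lowest share of the 10.

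The leading Etv1 transcripts differ inside the coding region by an exon of 69 bases, or 23 codons, at chr12:38852220-38852288, shown here in capitals with 15 flanking coding bases on each side (plus strand, GRCm38).
Etv1-201: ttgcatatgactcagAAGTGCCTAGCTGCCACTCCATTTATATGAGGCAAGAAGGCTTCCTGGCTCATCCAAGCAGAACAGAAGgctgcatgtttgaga
Etv1-203 passes from the same bases to the exon after it, in capitals below.
Etv1-203: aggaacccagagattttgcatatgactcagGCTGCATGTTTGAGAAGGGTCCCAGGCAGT
The model of Etv1-201 that was quantified was 4307 bases long and the one used here for sequence is 6576, and where they differ was not analysed here.

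Nfe2l3 encodes a cap'n'collar bZIP factor that binds DNA together with small Maf proteins (ENSMUSG00000029832.12, chr6:51432670-51458768, plus strand). Its level reached 8.95 TPM in replicate 1 and 12.14 TPM in replicate 2, or 10.5 ± 2.26 TPM (SD, n = 2). With 466 and 485 reads it had the fewest reads of the 10, and only Zfpm2 had a lower level. Nfe2l3-201, of 660 codons, held 88.26% and 87.74% of its TPM. The shorter Nfe2l3-203, of 264 codons, held 10.57% and 10.99%, resting on 22.21 and 24.12 estimated reads. It reads past the splice site at chr6:51456648-51456677 (plus strand), and the 18 coding bases after that point are in capitals below for both, to show where the short form leaves the coding sequence of the long one.
Nfe2l3-201: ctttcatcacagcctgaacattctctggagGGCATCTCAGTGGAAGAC
Nfe2l3-203: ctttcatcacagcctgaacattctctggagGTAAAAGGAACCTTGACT

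Tbr1 encodes the T-box factor of layer 6 and other early-born cortical neurons (ENSMUSG00000035033.11, chr2:61802930-61814114, plus strand). It was measured at 38.53 TPM in replicate 1 and 40.22 TPM in replicate 2, from 3350 and 2703 reads, or 39.4 ± 1.20 TPM (SD, n = 2). With Tle4 it was the most alike between the embryos, its coefficient of variation being 3.03%. Tbr1-201, of 681 codons, held 97.3% and 97.62% of its TPM.

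Foxp2 encodes a forkhead repressor of layer 6 neurons and of striatal and thalamic neurons (ENSMUSG00000029563.12, chr6:14901349-15441977, plus strand). Its level reached 21.93 TPM in replicate 1 and 30.71 TPM in replicate 2, from 2707 and 2826 reads, or 26.3 ± 6.21 TPM (SD, n = 2). Relative to its mean, this was the largest spread of the 10 between the embryos. Foxp2-207 held 48.33% of its TPM in replicate 1 and 38.66% in replicate 2, and Foxp2-201 held 31.91% and 38.16%. Both code for 714 codons and start 284157 bases apart, so they begin with different first exons. Together they made up 80.3% and 76.8%, and all transcripts annotated as coding 89.3 ± 1.98%.

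Tle4 encodes a Groucho-type corepressor, which lacks a DNA-binding domain and is brought to genes by other factors, and marks corticothalamic neurons (ENSMUSG00000024642.12, chr19:14448150-14598051, minus strand). It had 23.83 TPM in replicate 1 and 24.67 TPM in replicate 2, from 2429 and 1936 reads, or 24.2 ± 0.594 TPM (SD, n = 2). Tle4-201 held 80.99% and 76.42% of its TPM and Tle4-202 held 19.01% and 23.58%. Both have 773 codons in the annotation used here and differ by which of 2 exons of 17 bases they contain. The exons lie at chr19:14516359-14516375 and chr19:14491783-14491799 on the minus strand, and are in capitals below between 15 shared coding bases.
Tle4-201: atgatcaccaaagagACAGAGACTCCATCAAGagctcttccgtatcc
Tle4-202: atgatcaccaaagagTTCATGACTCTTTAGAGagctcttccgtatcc
The quantified model of Tle4-201 had 4555 bases and the one shown has 4545, so the deposited split refers to a slightly different Tle4-201.

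Zfpm2 encodes FOG2, a zinc finger protein known as a cofactor of GATA factors and present in corticothalamic neurons (ENSMUSG00000022306.8, chr15:40655035-41104592, plus strand). It was the lowest of the 10, at 6.99 TPM in replicate 1 and 9.05 TPM in replicate 2, from 780 and 777 reads, or 8.02 ± 1.46 TPM (SD, n = 2). That is the 57.2nd percentile of protein-coding genes. One transcript, Zfpm2-201 with 1151 codons, was quantified for it.

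Crym, the only one of the 10 that does not encode a regulator of transcription, codes for mu-crystallin, which binds thyroid hormone in the cytoplasm and is found in subcerebral neurons (ENSMUSG00000030905.5, chr7:120186380-120202111, minus strand). Its level reached 25.94 TPM in replicate 1 and 29.94 TPM in replicate 2, from 764 and 678 reads, or 27.9 ± 2.83 TPM (SD, n = 2). Crym-201, of 313 codons, held 99.77% and 99.92% of it.

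Across the 10 genes, the same transcript led in both forebrains for 10 of 10 by the deposited TPM, and for 9 by posterior mean TPM. In replicate 2 the lead of Foxp2-207 over Foxp2-201 was slight, at 11.87 against 11.72 TPM with overlapping intervals. Fezf2 and Zfpm2 had a single quantified transcript each, a coding one, so their place in this count and the next was fixed in advance. Transcripts annotated as coding held 90% or more of the TPM, averaged over the libraries, for 8, all but Foxp2 and Etv1. Foxp2 lay close to that limit, at 90.7% in replicate 1 and 87.9% in replicate 2. A Foxp2 transcript without a match in the annotation, at 1.53% and 1.97%, was counted as not coding. Of 54 transcripts in the tables, 18 held 10% or more of their gene, and 4 genes had a single one at that share. Overlapping genes touch 3 of the 10. On the strand opposite Bcl11a lie Gm12064, with 1 read in each library, and 4930538E20Rik (chr11:24160528-24172824), with 3.52 and 12.77 estimated reads, both far under the reads of Bcl11a. A miRNA gene inside Foxp2, Gm25470, was listed at 0, and 3 gene models inside Zfpm2, Gm49524, Gm49525 and Gm49526, were not analysed here. Whether counting used the strand is not given in the sources used here.

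**Figure D2:**
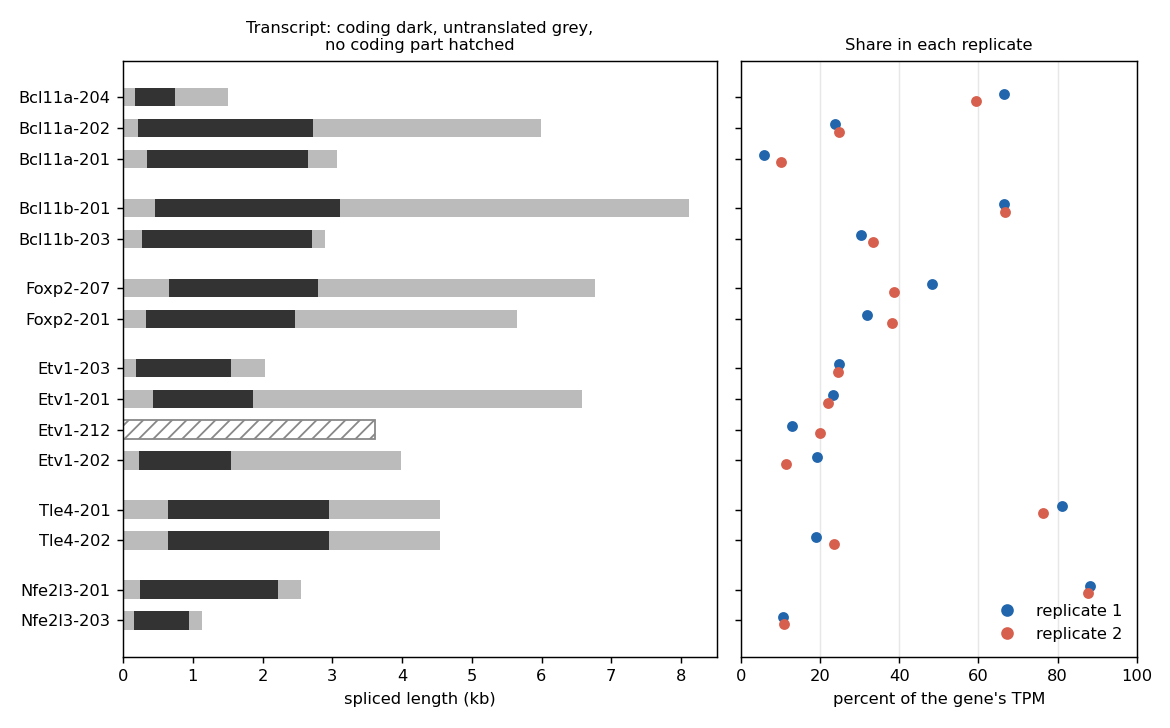
Transcripts of the 6 genes with more than 1 transcript at 10% or more of their TPM, and Bcl11a-201. The left panel draws the spliced length in kilobases in the annotation used here, with the coding part dark, and the right panel gives the percent of the gene's TPM in each replicate. The short Bcl11a-204 holds 66.53% and 59.37%, whereas the longer Bcl11b-201 holds 66.4% and 66.7%.

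The order of the 10 by mean TPM was Bcl11a, Bcl11b, Fezf2, Tbr1, Crym, Foxp2, Etv1, Tle4, Nfe2l3 and Zfpm2. Of the 9 pairs of neighbours in it, 6 were separated, meaning that their deposited TPM intervals did not overlap and had the same order in each library. Bcl11a exceeded Bcl11b by 1.00 ± 0.042 on the log2 TPM scale (SD, n = 2), Bcl11b exceeded Fezf2 by 0.18 ± 0.028, and Fezf2 exceeded Tbr1 by 0.59 ± 0.14. Below Tbr1, which exceeded Crym by 0.50 ± 0.099, the 3 pairs of neighbours among Crym, Foxp2, Etv1 and Tle4 were not separated. Foxp2 was below Crym in replicate 1 and above it in replicate 2, and Etv1 was below Tle4 in replicate 1 and above it in replicate 2. A step followed from Tle4 to Nfe2l3, of 1.21 ± 0.28, and Nfe2l3 exceeded Zfpm2 by 0.39 ± 0.042.

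The first place in that order depended on which Bcl11a transcripts were counted. Bcl11a-201 and Bcl11a-202 together stood below Bcl11b, at −0.78 in replicate 1 and −0.50 in replicate 2 on the log2 TPM scale, or −0.64 ± 0.20 (SD, n = 2). Without Bcl11a-204 alone, Bcl11a was −0.44 against Bcl11b, a calculation chosen after seeing the data. In read counts scaled to the library size (CPM) and not divided by length, Bcl11a was also below Bcl11b, at a log2 ratio of −0.15, Fezf2 was −0.20 against Tbr1, and Nfe2l3 was −0.71 against Zfpm2. The pairs not separated by TPM differed in CPM as well. Crym was −1.95 against Foxp2, Etv1 was −0.62 against Tle4, and Foxp2 was 0.97 against Etv1.

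Each gene was next set beside the other genes of its protein family, as log2 ratios of TPM within a library, and a pair was called by the same criterion on the deposited intervals. Of 20 pairs, the deep-layer factor was higher in 11 and lower in 8, and the pair of Tle4 and Tle3 was not called. The 8 include Bcl11b against Bcl11a, which are both deep-layer factors. Tbr1 exceeded Eomes, its T-box relative of intermediate progenitors at 20.06 and 19.51 TPM, by 0.99 ± 0.07 (SD, n = 2). Tbx21, the T-box factor of T cells, had 0.11 and 0.1 TPM. Fezf2 exceeded Fezf1, measured at 10.31 and 9.79 TPM, by 2.56 ± 0.24. Tbr1 and Fezf2 were thus the highest genes of their families in both forebrains.

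Foxp2 lay between its relatives. Foxp1, which is used in the striatum and the cortex, had 51.74 TPM in replicate 1 and 75.49 TPM in replicate 2, and Foxp2 was −1.27 ± 0.04 against it on the log2 TPM scale (SD, n = 2). Foxp4 had 16.84 and 25.43 TPM, and Foxp2 exceeded it by 0.33 ± 0.08. Foxp3, the factor of regulatory T cells, had no read in replicate 1, which allows up to 0.0363 TPM, and 0.07 TPM in replicate 2. The 3 detected Foxp genes were each higher in replicate 2.

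Tle4 was in the middle of the Groucho family. Aes, now named Tle5 and coding for a short family member without the WD repeats, had 292.47 and 389.94 TPM, and Tle4 was −3.80 ± 0.25 against it on the log2 TPM scale (SD, n = 2). Tle1 had 34.4 and 33.08 TPM, above Tle4, while Tle3 had 23.25 and 25.51 TPM. Tle4 against Tle3 was −0.01 ± 0.06, with opposite signs in the 2 libraries. Tle4 exceeded Tle2, at 10.18 and 14.5 TPM, by 1.00 ± 0.33, and Tle6, at 2.15 and 1.88 TPM, by 3.59 ± 0.17.

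Nfe2l3 was low in the cap'n'collar family. Nfe2l1 had 23 and 32.39 TPM, and Bach2 had 17.74 and 21.8 TPM. Nfe2l2, the regulator of the oxidative stress response, had 14.86 and 15.07 TPM. All 3 were above Nfe2l3, by log2 TPM ratios of Nfe2l3 over them of −1.39 ± 0.04, −0.92 ± 0.11 and −0.52 ± 0.30 (SD, n = 2). Bach1, at 13.96 and 20.92 TPM, was above it too, at −0.72 ± 0.11, but with coding transcripts alone Nfe2l3 was above Bach1, at 0.22. Only Nfe2, the factor of red cell and platelet precursors, was below it, at 0.34 and 0.92 TPM. Of the small Maf partners of this family, Mafg had 16.53 and 19.97 TPM, Mafk 6.24 and 9.99 TPM, and Maff 0.85 and 0.6 TPM.

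Etv1 was the highest of the PEA3 group of ETS factors. Etv5 had 14.86 and 17.69 TPM, and Etv1 exceeded it by 0.57 ± 0.11 on the log2 TPM scale (SD, n = 2). Etv4 had 3.7 and 2.98 TPM, and Etv1 exceeded it by 2.87 ± 0.50. Etv4 was lower in replicate 2, where Etv1 and Etv5 were higher.

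Zfpm2 was the FOG gene of this tissue, as Zfpm1 had 0.32 and 0.41 TPM, a log2 TPM ratio of 4.46 ± 0.01 in favour of Zfpm2 (SD, n = 2). Its known partners were scarce in the same RNA. Of 6 GATA genes, Gata3 alone reached 1 TPM in both forebrains, at 1.15 and 1.85 TPM, and Gata2 had 0.94 and 0.89 TPM. Gata1 and Gata6 had between 0.07 and 0.24 TPM. Gata4 and Gata5 had no read in either library, which allows up to 0.0748 and 0.0971 TPM for Gata4 and up to 0.0413 and 0.0536 TPM for Gata5.

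Of 7 genes that handle thyroid hormone, the ligand of the protein Crym encodes, 4 reached 1 TPM in both forebrains. Thra, the thyroid hormone receptor alpha, had 136.38 and 170.04 TPM, and the transporter genes Slco1c1 and Slc16a10 had 10.72 and 15.61 TPM and 1.44 and 1.66 TPM. Crym itself was thus above Slco1c1 and below Thra in both forebrains. Thrb, the receptor beta, and the deiodinase genes Dio2 and Dio3 had between 0.45 and 1.08 TPM, and these 3 are named after their values were seen.

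**Figure D3:**
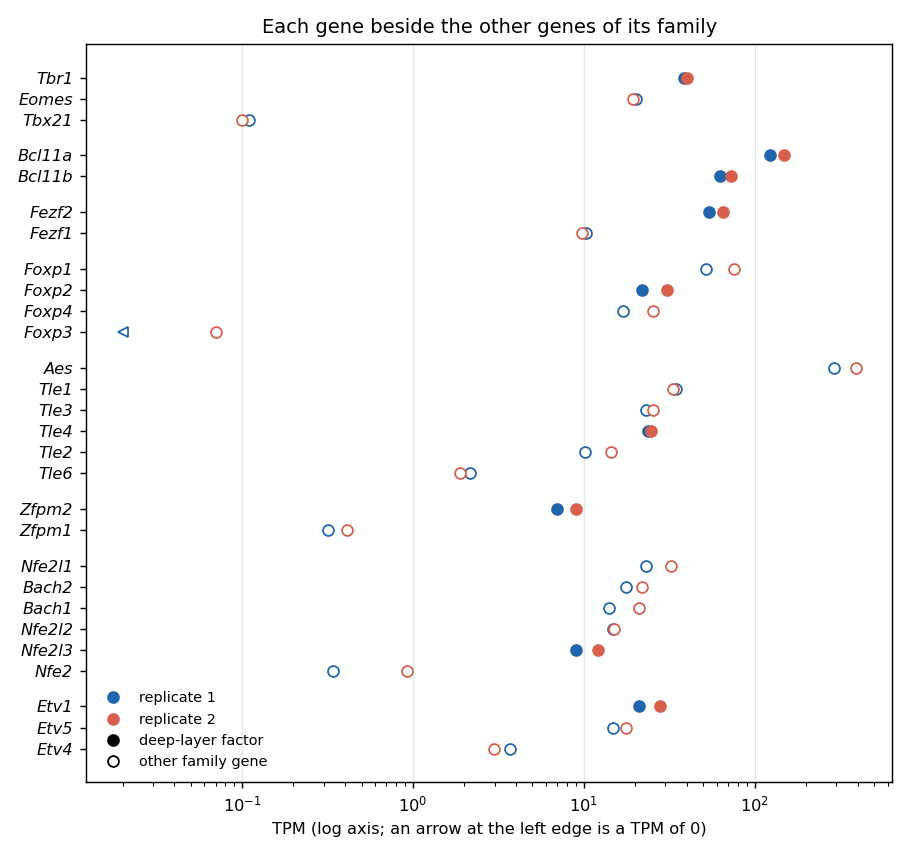
TPM (log axis) of each deep-layer factor (filled points) and the other genes of its family (open points) in replicate 1 and replicate 2, with families separated by gaps; Aes is the gene now named Tle5. Bcl11a, Tbr1, Fezf2, Zfpm2 and Etv1 lead their families. Foxp2, Tle4 and Nfe2l3 lie below at least 1 relative, and Bcl11b lies below Bcl11a, itself a deep-layer factor.

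All 10 deep-layer factors had the higher TPM in replicate 2, as did 71.7% of all genes, so the whole table leaned the same way. The difference between the embryos was taken as the log2 ratio of TPM + 1, replicate 2 over replicate 1, for the 14758 genes whose mean TPM was at least 1, and with 1 embryo on each side it has no test. None of the 10 differed by 1.5-fold, where 7.21% of all these genes did, 5.54% being higher in replicate 2 and 1.67% lower, and 1.51% of all differed by 2-fold. At that background share few or none of 10 genes would be past it, so the count says little about them. The ratios of the 10 ran from 0.05 to 0.47 with a median of 0.26, and that of all genes was 0.14. Relative to the median of all genes, 8 of the 10 were higher in replicate 2, and Tbr1 and Tle4 were not.

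The 10 were not alike in this. Foxp2 at 0.47 was at the 88.9th percentile of all genes' log2 ratios, Nfe2l3 at 0.40 at the 83.9th, Etv1 at 0.38 at the 82.0th and Zfpm2 at 0.33 at the 76.5th. These 4 lay above the upper quartile of all genes, 0.32. Bcl11a at 0.27, Fezf2 at 0.26, Bcl11b at 0.22 and Crym at 0.20 lay between the 59.1st and the 69.4th percentile. Tbr1 at 0.06 and Tle4 at 0.05 lay at the 36.9th and 35.0th percentile, below the median of all genes.

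The scale of the libraries sets the zero of these ratios. With counts scaled by edgeR's TMM factors the median of all genes moved to −0.02 and that of the 10 to 0.13, and with DESeq2's size factors to −0.03 and 0.12. By both, 8 of the 10 remained higher in replicate 2, and Tbr1 and Tle4 were lower in it, at −0.11 and −0.13 by TMM. Foxp2 and Nfe2l3 were then highest, both at 0.26. The medians of 4 lists given below changed sign with the TMM factors: subplate genes stood at −0.01, regulators of corticofugal identity at −0.06, cortical excitatory neuron markers at −0.06 and endothelial markers at −0.09.

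Other genes of deep-layer neurons were compared in the same way. Of 6 corticothalamic genes, all detected, 5 were above the median of all genes, and their median log2 ratio was 0.39. They include Sox5, which controls the timing of corticofugal fates, at 83.27 and 109.5 TPM, Rprm at 68.1 and 74.73 TPM, and Ppp1r1b, also a striatal gene, at 27.78 and 36.3 TPM. Syt6, at 10.11 and 16.03 TPM, was the 1 of the 6 past 1.5-fold. Foxp2 and Zfpm2 were thus within the range of these 6, which ran from 0.13 to 0.62, and Tbr1 and Tle4 were below all of them. The 9 subcerebral genes had a median of 0.20, with 6 above the median of all genes and none past 1.5-fold, led in level by Pcp4 at 169.23 and 178.96 TPM, Igfbp4 at 101.47 and 116.76 TPM and S100a10 at 100.82 and 111.57 TPM.

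Of 6 subplate genes, which mark the earliest-born cortical neurons, 5 were detected, the median ratio was 0.09, and Nr4a2 at 6.79 and 13.77 TPM was past 1.5-fold. Of 13 regulators of corticofugal identity, meaning the choice between projections out of the cortex and other fates, 13 were detected, with a median level of 46.0 TPM, above that of the 10, and a median ratio of 0.13. The highest were Lmo4 at 100.29 and 109.47 TPM, Sox5, Zbtb18 at 83.27 and 91.04 TPM and Lhx2 at 84.47 and 72.67 TPM.

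Upper-layer genes had a higher median ratio between the embryos than the deep-layer factors, although the lowest of them, at 0.04, was below all 10. Of 9, 8 were detected, 4 were past 1.5-fold higher in replicate 2 and none lower, and the median ratio was 0.55, against 0.26 for the deep-layer factors. Pou3f2, at 18.54 and 30.87 TPM, was among the 4, while Cux1 had 74.16 and 97.42 TPM and Pou3f3 24.02 and 30.07 TPM. That difference between the lists was not tested, since each embryo gives 1 library.

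Markers of other cells moved as well. Pan-neuronal markers summed to 2847 TPM in replicate 1 and 3575 TPM in replicate 2, with 8 of 8 above the median of all genes and a median ratio of 0.40. The 12 striatal markers, all detected, summed to 340.1 and 429.3 TPM, with 10 above the median of all genes and a median ratio of 0.40, and the 8 ventral and interneuron markers had a median of 0.28. All 6 intermediate progenitor markers, Hes6 highest at 199.74 and 185.03 TPM, were lower in replicate 2, with a median of −0.11. Radial glia markers were mixed: 5 of 8 were lower in replicate 2 and 3 higher (7 and 1 with TMM factors), the median was −0.17, and their sum was 2121 and 2117 TPM. General markers of cortical excitatory neurons had a median of 0.11, close to that of all genes, and 4 of 6 were below it. Thalamic and Cajal-Retzius markers had medians of 0.23 and 0.22. None of the defining markers of these lists was at 0, and the part of other cell types in the ratios of the 10 was not tested.

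**Figure D4:**
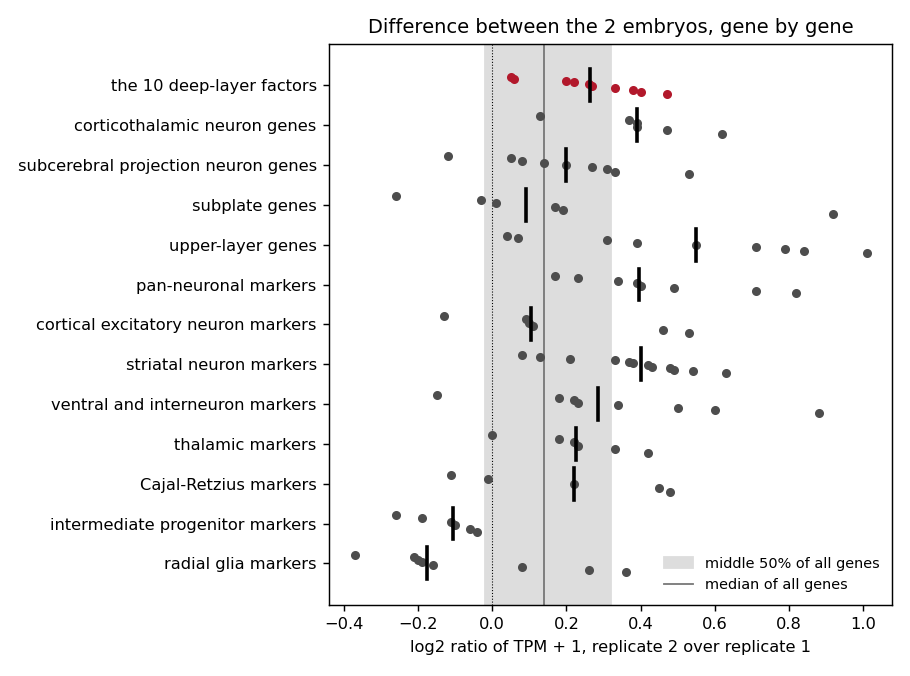
Log2 ratio of TPM + 1, replicate 2 over replicate 1, for the 10 deep-layer factors and 12 lists of related and other cell types (points are genes, black bars list medians). The grey band spans the middle of all 14758 genes, from −0.02 to 0.32 around a median of 0.14, and the deep-layer factors, with a median of 0.26, lie right of zero and left of the highest upper-layer genes.

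The libraries held 35310017 and 29250404 expected counts. Their counts differed beyond sampling noise, with a chi-square per gene of 28.66, so they were not 1 library deposited under 2 names. Endothelial and microglial markers were detected in full in both and had median ratios of 0.08 and 0.22.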

How the data were processed

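The authors deposited, per the file headers, expected counts (read numbers from a model, not always whole), TPM and FPKM per gene and per transcript. The deposited transcript tables also gave the percent of a gene's TPM that each transcript held, and all tables gave posterior means and TPM interval bounds, treated as a score because the files do not state their level. Assembly mm10 and GENCODE M4 were used, per the files' notes; the aligner, the counting program and strand use are not given in the sources used here. Each effective length was 99 bases under the length. Per the labels' protocols, 10 ng of RNA over 200 nt went into each library. The molecule is labelled total RNA, while a linked protocol is named after Smart-seq, which copies RNA from its poly(A) tail.

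Names, coordinates, transcript types and sequences came from GENCODE M21 on GRCm38, matched by identifier without version for 42462 of 43346 genes (98.0%) and 52 of the 54 transcripts of the 10 genes, 46 of them with equal length. The libraries summed to 35310017 and 29250404 expected counts. A count of 0 was taken to allow 3 reads, which covers counting error only.

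Levels were the deposited TPM, with mean and SD over the 2 libraries. Ratios between embryos used log2(TPM + 1) of genes whose mean TPM was at least 1, called at 1.5-fold and 2-fold, which understates changes of low genes. Ratios between genes used log2 TPM within a library. Expected counts rounded to whole numbers were scaled with edgeR 4.0.16 (TMM) and DESeq2 1.42.0 (size factors) as alternatives for scale alone, and no count test was run (R 4.3.3, Python 3.11.15, pandas 2.3.3, scipy 1.17.1). The calling step was run on simulated counts that carried sampling noise alone. The 2 libraries differed by more than that, with a chi-square per gene of 28.66, so the simulation gives no error rate for them.

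The 10 genes and the gene lists were chosen with earlier results of these data known. Genes named were the 10, their transcripts at 10% or more, their families, overlapping genes, the 4 genes with the highest mean TPM of each other list, and genes of those lists under 0.1 TPM in both libraries. Outside that rule, Bcl11a-201, Gm12064, Gm25470, Gm49524, Gm49525, Gm49526, Thrb, Dio2, Dio3, Alas2, Hbb-y and Hba-x were chosen after their values were seen. Counts and medians of lists also cover genes that are not reported here.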

Additional observations from a re-analysis of the deposited data

How the results depend on the processing

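With 1 library per replicate, no result carries a test. Bcl11a, Bcl11b, Etv1, Foxp2, Nfe2l3 and Tle4 transcript shares are estimates from reads that several transcripts share. No paired analysis was possible because the series has 1 group. CPM, which are not divided by length, reversed Bcl11a over Bcl11b to −0.15 (Bcl11b over Bcl11a 0.15), Fezf2 over Tbr1 to −0.20, Nfe2l3 over Zfpm2 to −0.71 and Tle4 over Tle1 to 0.10. Leaving out Bcl11a-204, chosen after seeing the data, gave −0.44 for Bcl11a over Bcl11b, and coding transcripts alone gave 0.22 for Nfe2l3 over Bach1. Each of these alternatives changes the length or the transcripts counted by construction. The span of mean TPM, 16.9-fold, became 16.1-fold with coding transcripts alone, and the median of 27.13 TPM became 32.9 TPM when rescaled over nuclear protein-coding genes. The percent of all genes past 1.5-fold was 11.9 with a pseudocount of 0.1, 12.2 with none and 3.46 with no filter. The median log2 ratio of the 10 genes was 0.13 with TMM factors and 0.12 with DESeq2 size factors; the cause of these moves was not tested. Beside these 7, the other 43 recomputed summary values moved by less than their spread or stayed within 1.5 times the reported count. Further values, mostly of single genes and pairs, were recomputed too. Of these, 205 stayed within their spread or counting error and 60 moved beyond it. The other 7, given above, were pairs separated or called by their intervals that changed sign. A change of sign in other values was not classed apart. It occurred among the 60 too, as for Crym over Foxp2, which went from 0.10 to −1.95 in CPM. Tbr1 and Tle4 between the embryos also changed sign, to −0.11 and −0.13 with TMM factors. The 60 include the ratios between embryos of most of the 10 genes with TMM or DESeq2 factors, and most of their levels when rescaled.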

Other observations

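Embryonic globin genes, known from red blood cells, differed more between the forebrains than any of the 10 deep-layer factors, and the adult-type globin genes did not. Hbb-y, an embryonic beta-type globin gene, had 528.73 TPM in replicate 1 and 123.21 TPM in replicate 2, and Hba-x, the embryonic alpha-type gene, had 69.7 and 28.35 TPM. The adult-type genes Hba-a2 and Hbb-bs had 5084.02 and 6288.34 TPM and 2369.55 and 3273.42 TPM. Alas2, the heme synthesis enzyme of red cells, had 19.56 and 36.87 TPM. Of the 8 red blood cell markers, 2 were past 1.5-fold lower in replicate 2 and 1 past 1.5-fold higher, beside 1.67% and 5.54% of all genes.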
